A study of Rattus norvegicus with 6 samples.

Results

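A set of 10 genes of collagen modification and cross-linking was examined in rat RA-FLS treated with TNF-α or with TNF-α and emodin (EMO). They were the rows of the deposited count table named P4ha1, P4ha2, P4ha3, Plod1, Plod2, Plod3, Lox, Loxl1, Loxl2 and Serpinh1. Each of the 10 names was found once among 34156 genes, and all 10 were among the 13614 genes tested, those that reached 10 counts in 3 or more libraries.

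A procollagen chain is modified in the endoplasmic reticulum before it can be secreted. Prolyl 4-hydroxylases hydroxylate proline and so stabilise the triple helix, lysyl hydroxylases prepare lysines for sugar attachment and for cross-links, and the chaperone HSP47, encoded by Serpinh1, holds the folded helix until it leaves the organelle. Outside the cell, copper-dependent lysyl oxidases oxidise lysine and hydroxylysine, from which the covalent cross-links of collagen and elastin form. In the arthritic joint, fibroblast-like synoviocytes are the stromal cells of the lining and a main source of this matrix.

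Both groups were rat fibroblast-like synoviocytes labelled as rheumatoid arthritis and WT, bought from a cell supplier and passaged before use, and both received 10 ng/mL TNF-α. The 3 TNF-α+EMO libraries also received 80 μmol/L EMO, an anthraquinone of rhubarb. The 3 TNF-α libraries are the control, and cells without TNF-α were not analysed here, so no value in the text measures the response to TNF-α itself. The labels give day 5 for all 6 samples, whereas the methods of the study give a shorter treatment. The methods call the 3 samples of a group biological replicates. Nothing in the labels says that they came from separate cultures, so the p-values measure the spread between these samples, which may be technical.

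The libraries held 16813322 to 17794455 counts on genes, and no group contained copies of one library, since a chi-square statistic per gene (near 1 for sampling noise alone) was at least 4.72 between any pair. TNF-α+EMO replicate 3 stood further from its group, with 16.1 and 25.2 against the other two, which differed from each other by 6.63. Counts on mitochondrial genes were 3.35% to 3.58% of the library in the TNF-α group and 0.363% to 0.399% in the TNF-α+EMO group. Of 10 synovial fibroblast markers, 7 could be tested, of which 6 fell and 1 rose, where 41.4% of all genes tested fell and 39.4% rose at an adjusted p under 0.05 by edgeR. Vim, an intermediate filament gene, fell from 61464 to 32387 normalized counts and Pdgfra, a growth factor receptor gene, from 20844 to 216, whereas Thy1, Pdpn and Prg4 had under 10 counts in every library of both groups. The summed normalized counts of the 10 markers were 87375 to 89818 with TNF-α and 31463 to 34047 with EMO. Of 7 macrophage markers, 5 were under 10 counts in every library, and all 3 T cell markers were. The summed normalized counts of the macrophage list were 1203 to 1306 with TNF-α and 734 to 804 with EMO, mostly from Cd14, which fell (log2 fold change -1.10), whereas Cd68 rose (0.75). Those of the endothelial list were 69.2 to 76.5 and 13.2 to 21.7. For the chondrocyte list they were 471 to 562 and 9.21 to 10.3, where Sox9 alone had means of 487 and 4.10. For the epithelial list they were 9942 to 10802 and 1968 to 2304, where Krt8 alone had means of 10389 and 2140, and for the adipocyte and muscle list 421 to 464 and 58.8 to 75.4. Of the defining markers, Ptprc had at most 1 count in a library, and Acan and Epcam had 0 in all. The part of these shifts in the results that follow was not tested.

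Of the 10 genes, 9 passed edgeR's quasi-likelihood test at an adjusted p under 0.05, where 80.9% of all 13614 genes tested did so (39.4% higher and 41.4% lower with EMO). Lox, Loxl1, Loxl2, Plod1, Plod2, P4ha2 and P4ha3 fell with EMO, P4ha1 and Plod3 rose, and Serpinh1 did not pass. With an absolute log2 fold change over 1 in addition (a differentially expressed gene, DEG), 6 of the 10 were called, all lower, against 47.3% of all genes tested in either direction (27.8% of all genes lower and 19.5% higher). With an absolute log2 fold change over 2, 4 of the 10 were called, against 22.5% of all genes tested. In 9 of the 10 the ranges of both groups were separate, as in 82.9% of all genes tested. The median log2 fold change of the 10 was -1.20, and that of all genes tested was -0.01. The sizes ranged from a 405-fold fall (Lox) to a 1.73-fold rise (P4ha1). Within both hydroxylase families a member rose while another fell, P4ha3 by 20.6-fold and Plod2 by 20.3-fold. In bulk RNA, fewer cells expressing a gene and less RNA per cell cannot be told apart, and this holds for every value in the text.

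**Figure D1:**
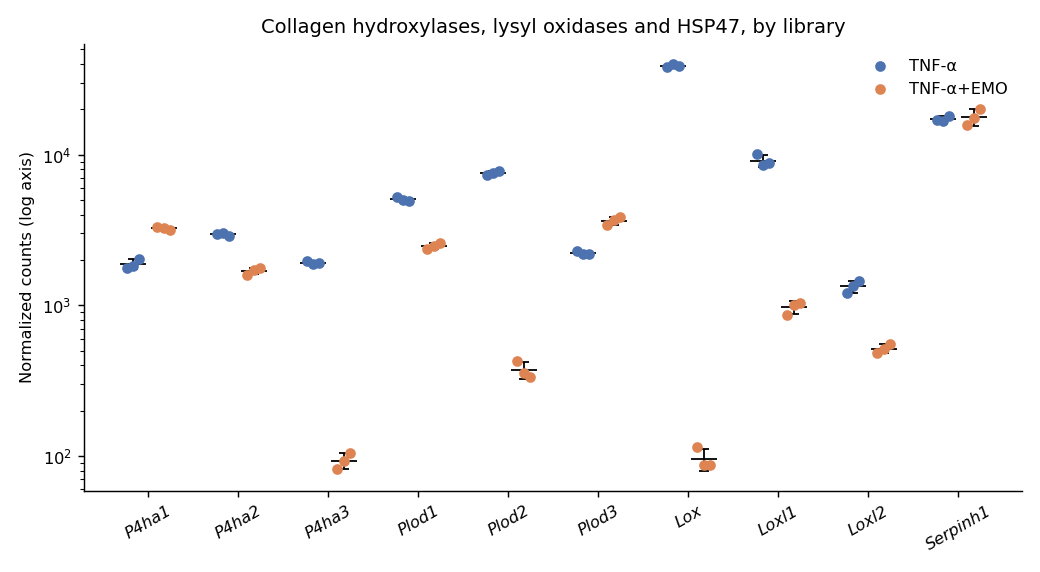
Normalized counts (log axis) of the 10 genes in each library, with points for single libraries and black bars for the mean and SD of 3 libraries per group. Lox falls from 38913 to 96.0 normalized counts on average, P4ha1 and Plod3 rise, and the groups overlap only for Serpinh1.

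The α subunits of prolyl 4-hydroxylase carry the catalytic site and differ by isoform, each pairing with the same β subunit. P4ha1, the most widely expressed α subunit (ENSRNOG00000050655, chromosome 20, 28920616 to 28971966 on Rnor_6.0, the build named in the submitters' notes), had 1778, 1834 and 2033 normalized counts with TNF-α alone and 3318, 3266 and 3176 with EMO added. All 3 values with EMO were above all 3 without, and the log2 fold change was 0.79 (standard error 0.07, adjusted p = 7.4e-07 by edgeR). P4ha2, the second isoform (chromosome 10, 39435227 to 39464188), moved the other way. It had 2992, 3011 and 2867 normalized counts with TNF-α and 1595, 1716 and 1766 with EMO, and its log2 fold change was -0.80 (standard error 0.06, adjusted p = 3.8e-07 by edgeR). Neither reached the fold threshold of a DEG. P4ha3, the third and least widely expressed isoform (chromosome 1, 165295847 to 165330322), was of the same order as P4ha1 in the TNF-α group, with 1977, 1870 and 1902 normalized counts. With EMO it had 82.5, 92.1 and 105, which is 20.6-fold lower (log2 fold change -4.36, standard error 0.10, adjusted p = 2.4e-11 by edgeR).

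Levels were scaled by the deposited gene length, so that the mRNAs of the 3 α subunits can be set side by side. With TNF-α, P4ha1 made up 27.2% ± 1.78 of their summed normalized counts per kilobase (SD, n = 3). P4ha2 made up 37.3% ± 1.27 and P4ha3 35.4% ± 0.955. With EMO, P4ha1 made up 67.1% ± 1.73, P4ha2 30.4% ± 1.45 and P4ha3 2.45% ± 0.289. Without scaling by length, the shares of P4ha1, P4ha2 and P4ha3 were 27.9%, 43.8% and 28.4% with TNF-α. With EMO these unscaled shares were 64.6%, 33.6% and 1.85%. The groups did not overlap in any of the 3 scaled shares, and each had an exact two-sided permutation p of 0.1, the smallest that 3 libraries against 3 can give. The summed level of the α subunits fell much less than P4ha3 did, from 3257 ± 26.7 to 2286 ± 15.7 normalized counts per kilobase, 1.43-fold lower. P4hb, the β subunit, which is also protein disulfide isomerase, did not pass the test, with 70506 ± 1977 and 75586 ± 4313 normalized counts (log2 fold change 0.10, 95% interval -0.02 to 0.22), though it did without TNF-α+EMO replicate 3, at 0.14. The log2 ratio of P4ha1 to P4ha2 within a library went from -0.65 ± 0.14 to 0.94 ± 0.11, so the order of these paralogs was reversed in 3 of 3 libraries (exact permutation p = 0.1, also 0.1 after adjustment over 8 ratios).

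**Figure D2:**
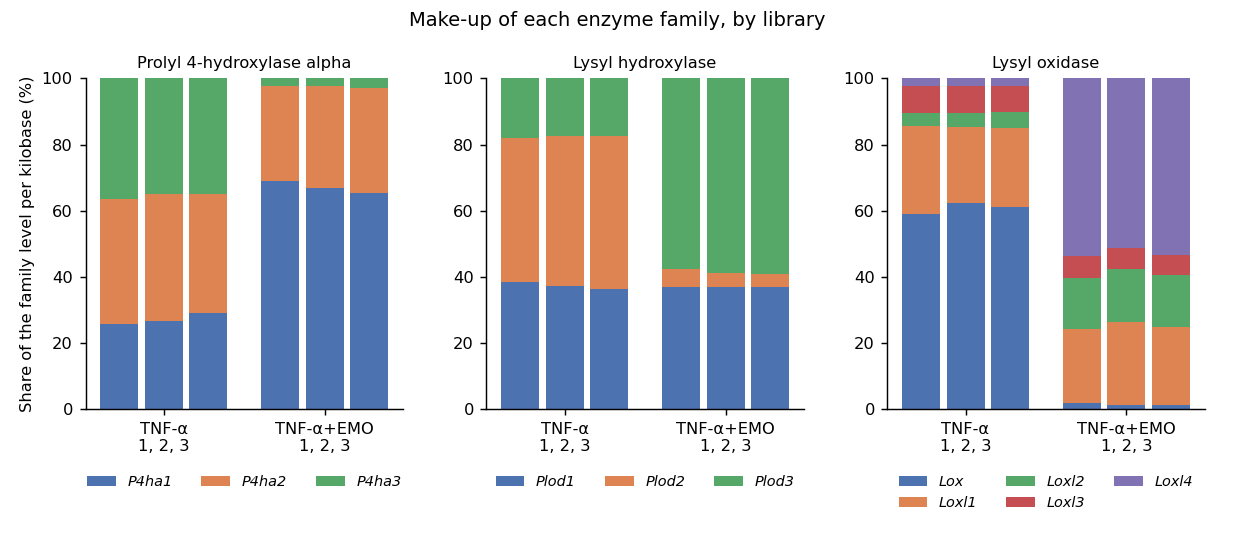
Share of each gene in the summed normalized counts per kilobase of its family (%), 1 bar per library, for the prolyl 4-hydroxylase α subunits, the lysyl hydroxylases and all 5 lysyl oxidases. P4ha3, Plod2 and Lox make up 2.45%, 4.50% and 1.38% of their families with EMO, after 35.4%, 45.0% and 60.8% with TNF-α.

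Among the lysyl hydroxylases, Plod2 encodes the enzyme that acts on the telopeptides, the ends of the chain where the pyridinoline cross-links characteristic of fibrosis begin. Plod2 (ENSRNOG00000030183, chromosome 8, 99977334 to 100059736) had 7295, 7576 and 7799 normalized counts with TNF-α alone and 427, 356 and 335 with EMO added. It was 20.3-fold lower with EMO, which is -4.34 as a log2 fold change (standard error 0.09, adjusted p = 1.7e-11 by edgeR). Plod1, which acts mainly within the helix (chromosome 5, 164720587 to 164747083), was 2.04-fold lower. Its normalized counts were 5204, 4994 and 4924 with TNF-α and 2358, 2474 and 2580 with EMO. Its log2 fold change was -1.03 (standard error 0.06, adjusted p = 3.2e-08 by edgeR), which lay just past the fold threshold, and its 95% interval, -1.16 to -0.90, spanned it. Plod3, which besides hydroxylation adds sugars to hydroxylysine (chromosome 12, 22716423 to 22726982), rose 1.64-fold. It had 2284, 2184 and 2201 normalized counts with TNF-α and 3421, 3681 and 3838 with EMO (log2 fold change 0.71, standard error 0.06, adjusted p = 1.1e-06 by edgeR). Its deposited coordinates overlap those of Znhit1 on the other strand, which had up to 1015 counts in a library. As the strand setting of the counting is not given in the sources used here, the count of Plod3 is less certain than the others.

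Per kilobase of gene, Plod2 was the leading lysyl hydroxylase with TNF-α and the smallest with EMO, and Plod3 went from last to first. The share of Plod2 was 43.4% to 46.2% across the TNF-α libraries and 3.86% to 5.38% across the TNF-α+EMO libraries. The share of Plod3 was 17.4% to 18.1% and then 57.6% to 59.1% (exact permutation p = 0.1 for both, n = 3 per group). Plod1 kept its share within the spread, at 37.4% ± 1.09 and 37.0% ± 0.083 (exact permutation p = 0.7, n = 3 per group), although its level fell. The sign of this small difference depends on gene length, being 4.05 percentage points higher with EMO when normalized counts are not divided by it. The summed level of the family fell 2.02-fold, from 4576 ± 22.3 to 2265 ± 101 normalized counts per kilobase. The log2 ratio of Plod2 to Plod3 fell by 5.06, from 1.76 ± 0.08 to -3.29 ± 0.27.

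Lox, the founding lysyl oxidase, had the largest change of the 10 genes. The gene (ENSRNOG00000014426, chromosome 18, 47500330 to 47577819) had 38339, 39800 and 38601 normalized counts with TNF-α alone and 114, 87.0 and 86.6 with EMO added. No library of one group came near the other, and the fold was 405, which is -8.66 as a log2 fold change (standard error 0.10, adjusted p = 8.1e-13 by edgeR). By normalized counts it was the 20th gene of the 13614 tested in the TNF-α group and the 9484th in the TNF-α+EMO group. By the size of its fall it was 69th of 10263 genes with a mean of at least 100 normalized counts. Its deposited coordinates overlap Zfp474 on the other strand, which had at most 12 counts in a library.

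Loxl1, which serves elastic fibres and collagen (chromosome 8, 63067300 to 63092009), had 10141, 8483 and 8751 normalized counts with TNF-α and 868.5, 1002 and 1042 with EMO. It was 9.40-fold lower (log2 fold change -3.23, standard error 0.09, adjusted p = 1.5e-10 by edgeR). Loxl2, which cross-links collagen IV of basement membranes (chromosome 15, 51303909 to 51365234), had 1214, 1337 and 1455 normalized counts with TNF-α and 480, 516 and 552 with EMO. It was 2.59-fold lower (log2 fold change -1.37, standard error 0.09, adjusted p = 1.0e-07 by edgeR). All 3 of these oxidases were thus DEGs and lower, but by different amounts, where 27.8% of all genes tested were lower DEGs. The log2 ratio of Lox to Loxl2 fell by 7.30 and that of Loxl1 to Loxl2 dropped by 1.86 (exact permutation p = 0.1 for each).

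The family has 2 more genes, which were not among the 10. Loxl3 fell from 3423 ± 49.3 to 293 ± 13.9 normalized counts (log2 fold change -3.55, standard error 0.07, adjusted p = 8.8e-12 by edgeR). Loxl4 rose from 890 ± 43.4 to 2278 ± 174 (log2 fold change 1.36, standard error 0.08, adjusted p = 2.1e-08 by edgeR). Of the 5 oxidases, 4 were lower DEGs and 1 a higher DEG, where 27.8% of all genes tested were lower DEGs and 19.5% higher. Over all 5, the summed level fell 9.13-fold, from 13328 ± 199 to 1460 ± 101 normalized counts per kilobase. Lox made up 60.8% ± 1.74 of it with TNF-α and 1.38% ± 0.307 with EMO, whereas Loxl4 made up 2.26% ± 0.088 and 52.8% ± 1.30 (SD, n = 3, exact permutation p = 0.1 for both). Loxl1 made up 24.5% ± 2.06 and 23.8% ± 1.28, a difference within the spread (exact permutation p = 0.6, n = 3 per group). Without scaling by length, Loxl1 made up 16.99% and 23.4%, so the sign of its difference is not settled.

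Serpinh1 (ENSRNOG00000016831, chromosome 1, 164301010 to 164308317) alone among the 10 genes did not pass the test. It had 16945, 16853 and 18099 normalized counts with TNF-α alone and 15727, 17628 and 20209 with EMO added. The groups overlapped, and the log2 fold change was 0.05 (standard error 0.08, 95% interval -0.14 to 0.23, adjusted p = 0.63 by edgeR). The spread with EMO (SD 2250) was wider than without (SD 695), and the sign turned without TNF-α+EMO replicate 3, where the log2 fold change was -0.06, and with library totals alone, where it was -0.07. HSP47 mRNA was the most abundant of the 10 per kilobase in both groups, at 8265 ± 332 and 8531 ± 1075 normalized counts per kilobase. In the TNF-α group its values overlapped with those of Lox, at 8095 ± 162, and in the TNF-α+EMO group no other member came near it.

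In full, the order of levels per kilobase with TNF-α was Serpinh1, Lox, Loxl1, Plod2, Plod1, P4ha2, P4ha3, P4ha1, Plod3 and Loxl2. Neighbours overlapped only between Serpinh1 and Lox and between P4ha2 and P4ha3. With EMO the order was Serpinh1, P4ha1, Plod3, Plod1, P4ha2, Loxl1, Loxl2, Plod2, P4ha3 and Lox, and no neighbours overlapped. The second place was held by Lox at 8095 and then by P4ha1 at 1534 ± 33.9 normalized counts per kilobase, and Lox was last with EMO at 19.97 ± 3.33.

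Most fibrillar collagen chains, the substrates of these enzymes, fell. Col1a1, the major chain of type I collagen, fell from 111181 ± 9932 to 3709 ± 46.0 normalized counts (log2 fold change -4.91, standard error 0.08, adjusted p = 2.8e-12 by edgeR), and Col3a1 from 11635 ± 269 to 26.7 ± 6.88. The log2 ratio of Serpinh1 to Col1a1 therefore rose by 4.94, from -2.68 ± 0.19 to 2.26 ± 0.18 (exact permutation p = 0.1, n = 3 per group). Of 9 fibrillar collagen genes listed, 8 were in the table and 6 were tested, with 4 lower DEGs and 1 higher, where 27.8% of all genes tested were lower DEGs and 19.5% higher. The higher one, Col11a2, was named after its values were seen. It had 17.3 ± 6.92 and 41.9 ± 20.4 normalized counts, with a log2 fold change of 1.27 (adjusted p = 0.016 by edgeR). It was no DEG without TNF-α replicate 2 (1.03, adjusted p = 0.063 by edgeR), TNF-α replicate 3 (1.25, adjusted p = 0.053) or TNF-α+EMO replicate 3 (0.80, adjusted p = 0.067). The median log2 fold change of the 6 was -3.36. Elastin, another substrate of the oxidases, had 0 counts in every library, while the 3 other elastic fibre genes tested were lower DEGs (27.8% of all genes tested were), among them Fbn1 (fibrillin), with a log2 fold change of -5.69.

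**Figure D3:**
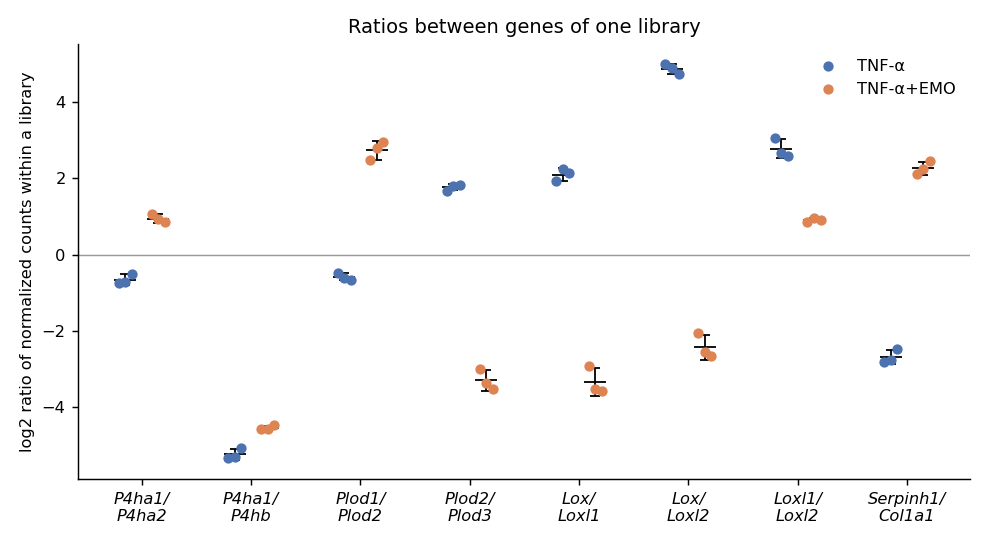
The log2 ratio of normalized counts of 2 genes within the same library, for 8 pairs, with points for libraries and black bars for the mean and SD of 3 libraries. The groups are separate in all 8, and the ratio of Serpinh1 to Col1a1 moves from -2.68 to 2.26.

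Of 14 genes listed as endoplasmic reticulum partners of these enzymes, 12 were in the table and 10 were tested, of which 6 fell, 3 rose and P4hb did not pass, and 4 were DEGs (3 lower and 1 higher). Both shares lie near those over all genes tested, 80.9% past the test and 47.3% DEGs. Their median was -0.85 on the log2 scale. P3h1, a prolyl 3-hydroxylase, fell from 2473 ± 54.4 to 1157 ± 19.96 normalized counts (log2 fold change -1.10, standard error 0.06, adjusted p = 1.5e-08 by edgeR). Fkbp10, a prolyl isomerase that works with lysyl hydroxylase 2 and HSP47, had a change of -0.82 on the log2 scale (standard error 0.07), and Colgalt1, a collagen galactosyltransferase, one of -0.88 (standard error 0.06). Ppib, cyclophilin B, rose from 5511 ± 148 to 7567 ± 459 normalized counts (log2 fold change 0.46, standard error 0.06). The largest changes among the DEGs were in Tmem38b, an ion channel gene of the organelle, at 1.14, and in Creb3l1, a transcription factor that activates collagen genes, at -1.15.

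Genes of procollagen processing, in which the propeptides are cut off before cross-linking, were all lower where they could be tested. Of 8 genes listed, 7 were in the table and 5 were tested, and all 5 were lower DEGs, where 27.8% of all genes tested were. Their median log2 fold change was -5.94. In Tll1 and Adamts14 all 3 TNF-α+EMO libraries were at or under the floor of 3 counts, and with these at their lower bounds (23.4-fold and 92.0-fold lower, against 3 normalized counts) the median was -4.55. Pcolce, the enhancer of the C-proteinase, fell from 10669 ± 168 to 748 ± 58.2 normalized counts, and Bmp1, the C-proteinase itself, from 1808 ± 128 to 522 ± 42.4. Adamts2, the N-proteinase, fell from 1566 ± 53.5 to 8.19 ± 4.45.

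**Figure D4:**
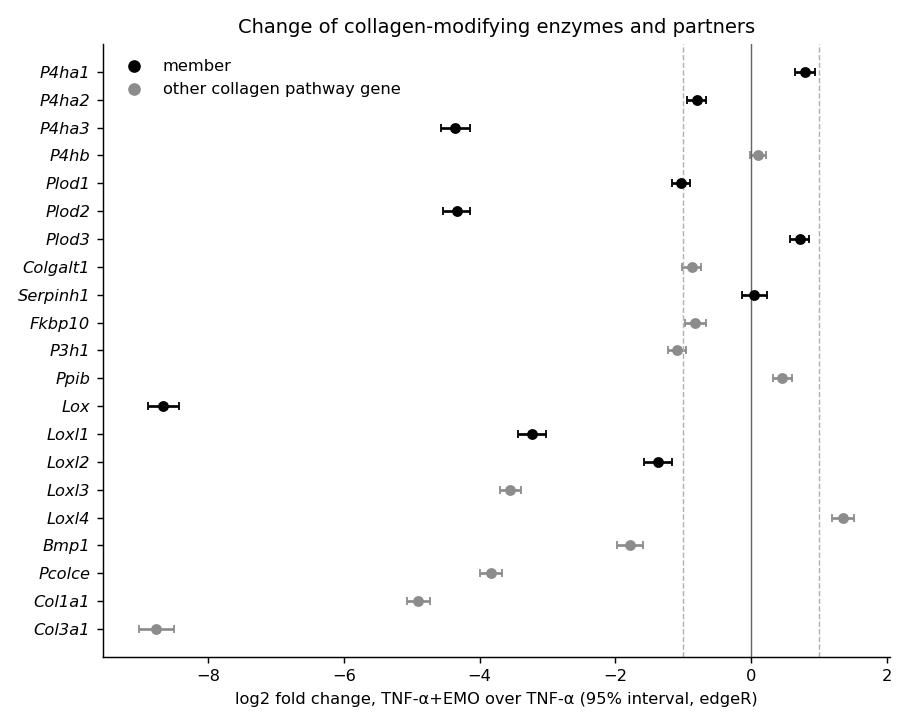
The log2 fold change (TNF-α+EMO over TNF-α, edgeR, 3 libraries per group) with its 95% interval for the 10 genes (black) and for partners and substrates named in the text (grey), with dashed lines at the DEG threshold of 1 in both directions. Lox at -8.66 and Col3a1 at -8.76 lie furthest left, and the interval of Serpinh1 spans 0.

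The hydroxylases need ascorbate, iron and 2-oxoglutarate, and the oxidases need copper. Of 5 genes for the transport or handling of ascorbate and copper, 4 were tested, of which 1 rose and 3 did not pass. Atox1, a copper chaperone, was among these 3 (log2 fold change -0.12). Over all genes tested, 39.4% rose and 80.9% passed in either direction. Slc31a1, the copper importer, went from 695 ± 46.4 to 1493 ± 25.2 normalized counts (log2 fold change 1.10, standard error 0.07, adjusted p = 1.0e-07 by edgeR), a change that was 0.99, under the DEG threshold, with library totals alone. Atp7a, the pump that loads copper onto lysyl oxidase in the Golgi, did not pass (454 ± 28.7 and 561 ± 133 normalized counts, log2 fold change 0.31, 95% interval -0.05 to 0.66), though it did without TNF-α+EMO replicate 3, at 0.48. Slc23a2, an ascorbate transporter, did not pass (log2 fold change 0.06, 95% interval -0.13 to 0.24).

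Several of the 10 genes, among them P4ha1, P4ha2, Plod2, Lox and Loxl2, are textbook targets of the hypoxia-inducible factor, and here P4ha1 rose while the other 4 fell. Of 12 other hypoxia-induced genes listed, 11 were tested, and 7 rose and 4 fell, with 4 higher and 2 lower DEGs and a median log2 fold change of 0.60. Over all genes tested 80.9% passed, and 19.5% were higher and 27.8% lower DEGs, so the share of DEGs in the list lies near that over all genes. Vegfa rose from 2098 ± 191 to 7054 ± 554 normalized counts and Adm, adrenomedullin, fell from 1045 ± 93.0 to 32.4 ± 7.74. Of 5 oxygenases related to the collagen hydroxylases, 4 were tested and 2 fell, where 41.4% of all genes tested fell. Egln3, an oxygen-sensing prolyl hydroxylase, fell from 2255 ± 59.0 to 172 ± 27.7 normalized counts (log2 fold change -3.71, standard error 0.11, adjusted p = 1.2e-10 by edgeR), Egln1 had a change of -0.78 on the log2 scale (standard error 0.08), and the other two did not pass.

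Promoters were read from RefSeq on GRCr8, a later build than that of the counts, as the 250 bases before the start that RefSeq gives. Of the 10 genes, 8 matched by symbol, and Lox and Loxl2 did not. The 4 sequences shown are of P4ha1, which rose, of P4ha2 and Plod2, which fell, and of Serpinh1, which did not pass the test. Capitals mark ACGTG and GCGTG on either strand, both forms of the core of the hypoxia response element, of which the second is also the core of the dioxin response element, and the heat shock element (TTC, GAA and TTC with 2 bases between) on either strand.
P4ha1, chr20:27844796-27845045, plus strand: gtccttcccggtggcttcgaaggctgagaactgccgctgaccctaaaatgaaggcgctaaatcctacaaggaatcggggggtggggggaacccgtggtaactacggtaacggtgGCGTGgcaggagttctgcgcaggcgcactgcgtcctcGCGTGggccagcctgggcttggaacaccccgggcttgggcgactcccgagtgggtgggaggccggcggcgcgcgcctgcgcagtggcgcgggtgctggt
P4ha2, chr10:38743644-38743893, plus strand: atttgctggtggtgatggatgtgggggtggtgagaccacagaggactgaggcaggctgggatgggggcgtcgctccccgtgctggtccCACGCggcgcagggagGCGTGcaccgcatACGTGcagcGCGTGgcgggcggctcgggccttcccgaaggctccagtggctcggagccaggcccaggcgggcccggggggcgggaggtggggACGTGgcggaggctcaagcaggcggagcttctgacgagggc
Plod2, chr8:101964068-101964317, plus strand: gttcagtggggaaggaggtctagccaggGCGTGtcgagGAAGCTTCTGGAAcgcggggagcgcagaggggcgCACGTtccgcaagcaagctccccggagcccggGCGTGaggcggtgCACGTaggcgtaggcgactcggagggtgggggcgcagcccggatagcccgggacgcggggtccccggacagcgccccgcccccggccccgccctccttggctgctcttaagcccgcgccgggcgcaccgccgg
Serpinh1, chr1:163062977-163063226, minus strand: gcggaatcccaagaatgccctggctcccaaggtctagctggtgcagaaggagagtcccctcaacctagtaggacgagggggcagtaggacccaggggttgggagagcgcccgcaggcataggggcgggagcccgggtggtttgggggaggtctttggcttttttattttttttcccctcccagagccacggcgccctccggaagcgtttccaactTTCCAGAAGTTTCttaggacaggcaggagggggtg

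ACGTG was found in 2 of the 8 promoters, P4ha2 and Plod2 (2 matches each), and in 16.6% of 33469 rat promoters of the same length. Both genes fell, with log2 fold changes of -0.80 and -4.34. GCGTG was found in 5 of the 8, namely P4ha1, P4ha2, Plod1, Plod2 and Plod3, and in 25.9% of all promoters. Of these 5 genes, 2 rose and 3 fell. The heat shock element, a motif added after the sequences were seen, was found in Serpinh1, 35 bases before the start, and in Plod2, 212 bases before it, and in 0.663% of all promoters. In Plod2 it overlaps no ACGTG or GCGTG match. One of these genes did not pass the test and the other fell. CAGAC, the core of a SMAD-binding element, was found in P4ha3, Plod1, Plod3 and Loxl1, and in 42.9% of all promoters. No match to the endoplasmic reticulum stress element (CCAAT and CCACG with 9 bases between) or to the CArG box, the serum response element, lay in the 8 windows (0.0657% and 1.5% of all promoters). The 8 windows had a GC content of 60.4% to 74.8%. The shares over all promoters were not matched to them for GC content or for expression. These matches describe letters in a window and were not tested as sites of any factor.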

How the data were processed

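RNA-seq of 6 libraries was used, 3 of the TNF-α group and 3 of the TNF-α+EMO group, grouped by sample title. The deposited table holds raw counts per gene, made by the authors after FastQC, Trimmomatic and HISAT2 alignment to Rnor_6.0 (the submitters' notes name these tools and the build). The counting program, its annotation and its strand setting are not given in the sources used here. The table also holds FPKM values and gene lengths computed by the authors, and 5 columns of their own comparison, which were not used.

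Genes that reached 10 counts in 3 or more libraries were tested with edgeR 4.0.16 in R 4.3.3 (TMM normalization, robust quasi-likelihood F test) with Benjamini-Hochberg adjustment over all 13614. A DEG passed at 0.05 after adjustment and changed by more than 1 on the log2 scale. Normalized counts are counts scaled by TMM library size. Levels between genes were compared per kilobase of deposited gene length. Ratios (log2, 0.5 normalized counts added) and shares were compared with the exact two-sided permutation test over libraries. Intervals are 95% intervals. Counts limit precision at low levels, and values at or under 3 counts were taken as a floor.

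The members and gene lists were chosen with earlier results of these data known. All 10 members were named, together with the genes of the listed pathways that bind, process, supply or share a family with them. Crtap, Mia3, Pcolce2, Col1a2, Car9 and Pecam1 were not analysed here. Alternatives were DESeq2 1.42.0, other scalings, filters and fold thresholds, a replicate block, and leaving out each library. The deposited FPKM for shares and the heat shock motif were added after seeing the data. Libraries of the same number did not deviate together (correlations 0.020, -0.00051 and 0.057), which shows no pairing by number but cannot exclude one. The fit was tested on simulated data in which 192 of 13157 genes changed. It recovered 99.5% of these, and 3.54% of its calls were false. In the real data 80.9% of the genes tested passed, a setting that the simulation did not cover.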

Additional observations from a re-analysis of the deposited data

How the results depend on the processing

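Of the 10 genes, 6 were called in each of the 12 alternative fits at the same thresholds, among them DESeq2 and each fit without 1 library. Without the fold threshold 9 were called, and 4 with an absolute log2 fold change over 2. With the replicate block, 6 of the 10 and 6421 of all genes were called, after 6442 without it, and the block changed no call of the 10. Without scaling by gene length, the differences in share with EMO turned from -0.37 to 4.05 percentage points for Plod1, from -0.70 to 6.37 for Loxl1 and from -1.76 to 0.675 for Loxl3. Leaving out 1 library at a time, the difference ranged from -0.877 to 0.204 for Plod1 and from -1.52 to 0.457 for Loxl1, and the sign turned without TNF-α replicate 1. The log2 fold change of Serpinh1 was -0.070 with library totals alone and -0.059 to 0.12 with 1 library left out. With library totals alone, which moved the median of all genes tested to -0.12, P4hb was at -0.012, Slc23a2 at -0.055, and the count of cofactor genes called went from 1 to 0. Without the fold threshold, the counts called were 9 in place of 4 for the endoplasmic reticulum partners, 2 in place of 1 for the other oxygenases and 11 in place of 6 for the hypoxia-induced genes, since fewer criteria applied. For the other changes the cause was not tested. With 3 libraries per group the exact permutation test cannot go below 0.1, and the strand setting of the counts is unknown.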
